A study of Mus musculus with 3 samples.

Results

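The genes described here are 10 mouse genes of bone morphogenetic protein (BMP) signalling: the ligands Bmp2 and Bmp4, the secreted antagonist Grem1, the receptor Bmpr1a, the inhibitory Smads Smad6 and Smad7, and the targets Id1, Id2, Id3 and Id4. They were selected by gene name, with their signals on these arrays known, so the differences below describe them and test nothing. On each array they are read by 14 of 41167 probes, and they are 10 of 27724 genes. C3H10T1/2 is an established mouse embryo fibroblast line used in transformation assays. Cells in DMEM received hexavalent chromium, Cr(VI), at 0.01 uM or 1 uM for 48 h, starting 24 h after 2000 cells per flask were seeded, and untreated cells were carried alongside. Each group had 3 flasks, RNA was taken from trypsinised cells after 15 days, and each group gave 1 array. The labels do not state if RNA from the flasks of a group was combined, and with 1 array per group no difference has a replicate check.

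BMPs are secreted signals that bring together type I and type II receptor kinases at the cell surface. The activated receptor phosphorylates Smad proteins, which enter the nucleus with Smad4 and switch on the Id genes together with Smad6 and Smad7, whose products dampen the signal again. Id proteins lack a DNA-binding region and hold E proteins and related helix-loop-helix factors inactive. In C3H10T1/2 cells added BMP is known to start bone, cartilage or fat cell development.

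The sequences of 4 probes that lie in coding sequence are given because each read a signal over 3-fold lower at 1 uM than in untreated cells. Id2 has a second, brighter probe, described below and not printed. They are 60 bases long and written in the direction of the transcript, and capitals mark the stop codon of Id2.
Bmp4 probe: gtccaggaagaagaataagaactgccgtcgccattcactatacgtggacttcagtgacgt
Id2 probe: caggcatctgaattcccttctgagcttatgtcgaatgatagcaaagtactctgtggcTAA
Id3 probe: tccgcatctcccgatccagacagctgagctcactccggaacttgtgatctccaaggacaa
Smad6 probe: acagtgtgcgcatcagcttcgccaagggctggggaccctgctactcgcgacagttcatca
In the array's own annotation, on mouse build mm9, the Bmp4 probe lies at chr14:47003802-47003861 and the Smad6 probe at chr9:63801378-63801437, both on the minus strand. The Id2 probe covers 348 genomic bases at chr12:25780183-25780530 on the minus strand and the Id3 probe 175 bases at chr4:135700075-135700249 on the plus strand, so each of these crosses an exon junction.

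Promoter sequences from RefSeq (build GRCm38.p6, 250 bases before to 50 after the annotated start) were matched for 7 of the 10 genes. Those of Smad6, Id2, Id3 and Grem1 are shown because Smad6 and the Id genes are classical Smad targets and Grem1 was the only gene of the 10 measured higher at 1 uM. The promoters of Id4, Bmp4 and Bmpr1a were also matched and are not printed. Capitals mark GTCTAGAC, the palindromic Smad-binding element, and GGAGCC and GGCGCC, GC-rich elements bound by Smads, each searched on both strands (GGCTCC is GGAGCC read on the other strand).
Smad6 promoter: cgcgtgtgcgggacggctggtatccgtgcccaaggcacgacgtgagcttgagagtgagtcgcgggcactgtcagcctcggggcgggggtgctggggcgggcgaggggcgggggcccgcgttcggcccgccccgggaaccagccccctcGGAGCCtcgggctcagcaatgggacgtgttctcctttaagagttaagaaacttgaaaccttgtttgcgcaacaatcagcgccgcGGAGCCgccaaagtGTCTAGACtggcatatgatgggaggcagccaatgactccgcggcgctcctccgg
Id2 promoter: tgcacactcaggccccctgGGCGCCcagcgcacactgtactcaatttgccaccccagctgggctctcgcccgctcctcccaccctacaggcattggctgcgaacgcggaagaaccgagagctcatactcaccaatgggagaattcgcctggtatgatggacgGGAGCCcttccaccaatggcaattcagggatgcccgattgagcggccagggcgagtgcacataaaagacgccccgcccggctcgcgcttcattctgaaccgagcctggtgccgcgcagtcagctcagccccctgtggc
Id3 promoter: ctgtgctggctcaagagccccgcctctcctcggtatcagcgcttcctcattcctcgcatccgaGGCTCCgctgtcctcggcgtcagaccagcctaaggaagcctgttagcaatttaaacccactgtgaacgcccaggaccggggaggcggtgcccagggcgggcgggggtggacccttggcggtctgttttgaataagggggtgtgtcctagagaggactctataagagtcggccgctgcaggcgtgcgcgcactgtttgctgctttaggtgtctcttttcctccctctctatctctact
Grem1 promoter: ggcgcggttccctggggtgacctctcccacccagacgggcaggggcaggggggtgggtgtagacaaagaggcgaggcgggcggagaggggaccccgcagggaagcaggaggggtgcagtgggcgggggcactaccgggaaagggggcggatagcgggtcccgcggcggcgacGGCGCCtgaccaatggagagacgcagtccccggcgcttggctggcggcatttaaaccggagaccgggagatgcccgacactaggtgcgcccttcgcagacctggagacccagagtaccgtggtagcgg
They lie at chr9:64022010-64022309 (minus strand), chr12:25096043-25096342 (minus), chr4:136143572-136143871 (plus) and chr2:113758599-113758898 (minus). GTCTAGAC was present in the Smad6 promoter, across the annotated start, and in 0.213% of 32851 promoters. GGAGCC was present in 30.8% of them and GGCGCC in 11.9%, so a match to either is common. The Smad6 window held GGAGCC at 102 and 18 bases before the start, Id2 held GGCGCC and GGAGCC at 231 and 88 bases before it, Id3 held GGAGCC at 187 and Grem1 held GGCGCC at 78. None of the searched elements overlapped another in these 4 windows. Of the matched promoters not printed, Id4 held GGAGCC and GGCGCC, Bmp4 held GGAGCC and Bmpr1a held GGCGCC. The share of all promoters holding any of the marked elements is not given, so these matches are not read as an enrichment. A match describes letters, not binding.

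All levels below are log2 signal minus the 75th percentile of all probes on the same array, so 0 is the level that 25% of the probes exceeded. Between 36.4% and 41.8% of probes per array were well above background. The scanner software's error model gave a median technical standard error (SE) of 0.21 for a log2 difference between any pair of arrays. Of 10 fibroblast markers, 9 were well above background in untreated cells, 9 at 0.01 uM and 8 at 1 uM. Their summed linear scaled signals were 557 in untreated cells, 697 at 0.01 uM and 420 at 1 uM. The brightest markers weigh most in these sums. Col1a1 and Col1a2 each read 6.52 in untreated cells, 6.94 at 0.01 uM and 6.39 at 1 uM. The 75th percentile subtracted was lowest at 0.01 uM (9.01, against 9.45 in untreated cells and 9.56 at 1 uM). A probe near the scanner's limit would rise by that subtraction alone, so the sums are not compared between arrays. Saturation of single markers is not given. Fap was not above background on any array, and Thy1 was not above it at 1 uM (-3.56 at 1 uM against 2.84 in untreated cells). None of 6 epithelial markers was above background anywhere, with summed signals of 0.19 in untreated cells, 0.358 at 0.01 uM and 0.221 at 1 uM. These sums hold only signal not well above background and are no measure of expression. Epcam, for one, read -5.24 in untreated cells, -4.36 at 0.01 uM and -5.05 at 1 uM. The lowest detected level was likewise highest at 0.01 uM (-2.11, against -2.98 in untreated cells and -2.80 at 1 uM). The sums over 6 endothelial markers were 0.215 in untreated cells, 0.327 at 0.01 uM and 0.624 at 1 uM. Of these, Pecam1, Kdr, Tek, Emcn and Tie1 were not above background on any array, and Cdh5 was above it at 1 uM only (-1.10 at 1 uM against -4.01 in untreated cells). The endothelial sums in untreated cells and at 0.01 uM thus also hold only signal not well above background. Of 6 leukocyte markers, Cd68 was above background on all 3 arrays and Aif1 at 1 uM only, while Ptprc, Tyrobp, Laptm5 and Cd53 were not above it on any. The leukocyte sums were 4.46 in untreated cells, 4.28 at 0.01 uM and 4.54 at 1 uM. The part of these markers in the differences below was not tested.

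At 1 uM, 7 of the 9 genes compared were at least 2-fold lower than in untreated cells: Bmp4, Smad6, Smad7, Id1, Id2, Id3 and, as a bound, Id4. Over all 12450 genes compared, 4.86% were lower by this much, 5.57% were higher by this much, and 10.4% were one or the other. The median over the 9 genes was -1.61, which is the bound of Id4, against -0.02 over all genes. With both arrays required above background, 6 members were at least 2-fold lower, where 482 of 11329 genes were, and the members' median was -1.51. Bmpr1a was lower by less than 2-fold, Grem1 was higher by 1.49-fold, and Bmp2 had no signal to compare. Under scaling on 6 spike-in controls, which put the median of genes detected on both arrays at 0.686 in place of -0.044, Bmp4, Smad6, Id2 and Id3 stayed past 2-fold and Smad7, Id1 and Id4 did not. In bulk RNA, fewer cells expressing a gene and less of its RNA per cell cannot be told apart.

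Of the ligands, Bmp4 was the one measured. Its level was 2.48 in untreated cells, 2.90 at 0.01 uM and 0.25 at 1 uM, so the 1 uM array stood below the other 2. The difference was -2.23 at 1 uM against untreated (SE 0.21), a 4.70-fold lower signal, and 86 of 12450 genes (0.691%) had a value as low or lower. The probe is printed 10 times on each array, which shows the technical spread. The kept spots lay between 2.38 and 2.57 in untreated cells (n = 9, SD 0.057), between 2.80 and 2.99 at 0.01 uM (n = 10, SD 0.053) and between 0.19 and 0.34 at 1 uM (n = 8, SD 0.058). No spot of one array reached the range of another, but spots of one array share 1 RNA sample and are not replicates of a condition. Bmp2, which is known for inducing bone, was not well above background on any array, with mean levels of -5.27 in untreated cells, -4.36 at 0.01 uM and -5.07 at 1 uM. No difference is given for it.

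**Figure D1:**
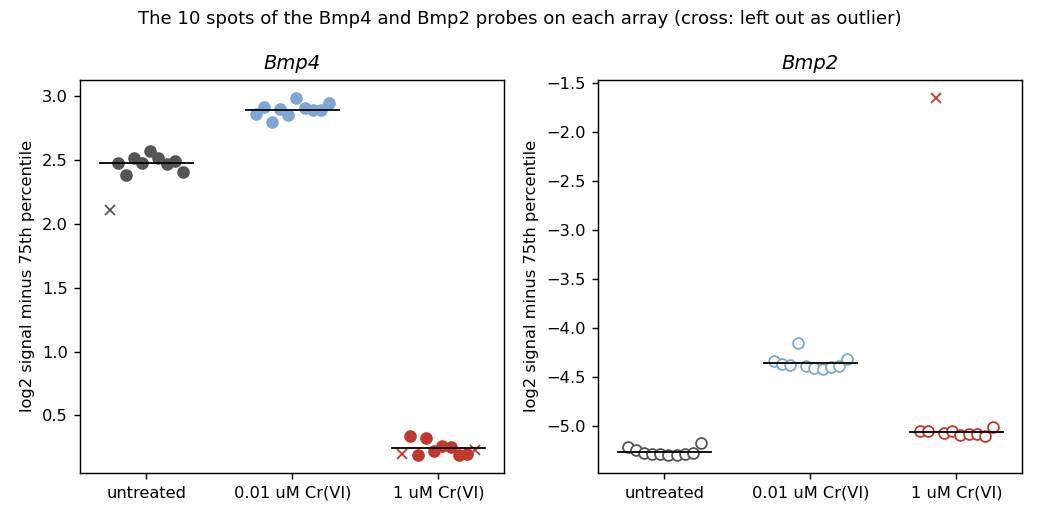
Each point is 1 spot of the Bmp4 probe (left) or the Bmp2 probe (right), on the vertical axis as log2 signal minus the array's 75th percentile, with the 3 arrays on the horizontal axis; bars are means of kept spots, open points are not well above background and crosses are spots left out as outliers. The kept Bmp4 spots at 1 uM lie between 0.19 and 0.34 and those of untreated cells between 2.38 and 2.57, while all kept Bmp2 spots lie below -4.

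Grem1 encodes Gremlin 1, which binds BMPs outside the cell and keeps them from their receptors. It was the exception in direction, with levels of 2.77 in untreated cells, 2.75 at 0.01 uM and 3.34 at 1 uM. The difference at 1 uM against untreated was 0.58 (SE 0.20), under the 2-fold threshold, and 86.0% of all genes had a value as low or lower. Bmpr1a encodes a type I receptor for BMP2 and BMP4, and its brighter probe read 1.43 in untreated cells, 1.40 at 0.01 uM and 0.58 at 1 uM. It was therefore lower at 1 uM by 1.81-fold (log2 difference -0.86, SE 0.21), short of the 2-fold threshold. Over the alternatives this value ranged from -0.86 to -0.13. The last was under spike-in scaling, where the technical interval held 0. A second Bmpr1a probe was not well above background on any array.

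Smad6 and Smad7 encode the inhibitory Smads, which block receptor signalling, Smad6 chiefly that of BMPs and Smad7 also that of TGF-beta. Smad6 had levels of 0.47 in untreated cells, 0.98 at 0.01 uM and -1.35 at 1 uM. Smad7 had 0.40 in untreated cells, 0.42 at 0.01 uM and -0.80 at 1 uM. Both were lowest at 1 uM, by -1.82 for Smad6 (3.53-fold lower, SE 0.25) and -1.19 for Smad7 (2.29-fold lower, SE 0.22) against untreated. Values as low or lower were held by 1.18% of all genes for Smad6 and by 3.21% for Smad7.

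**Figure D2:**
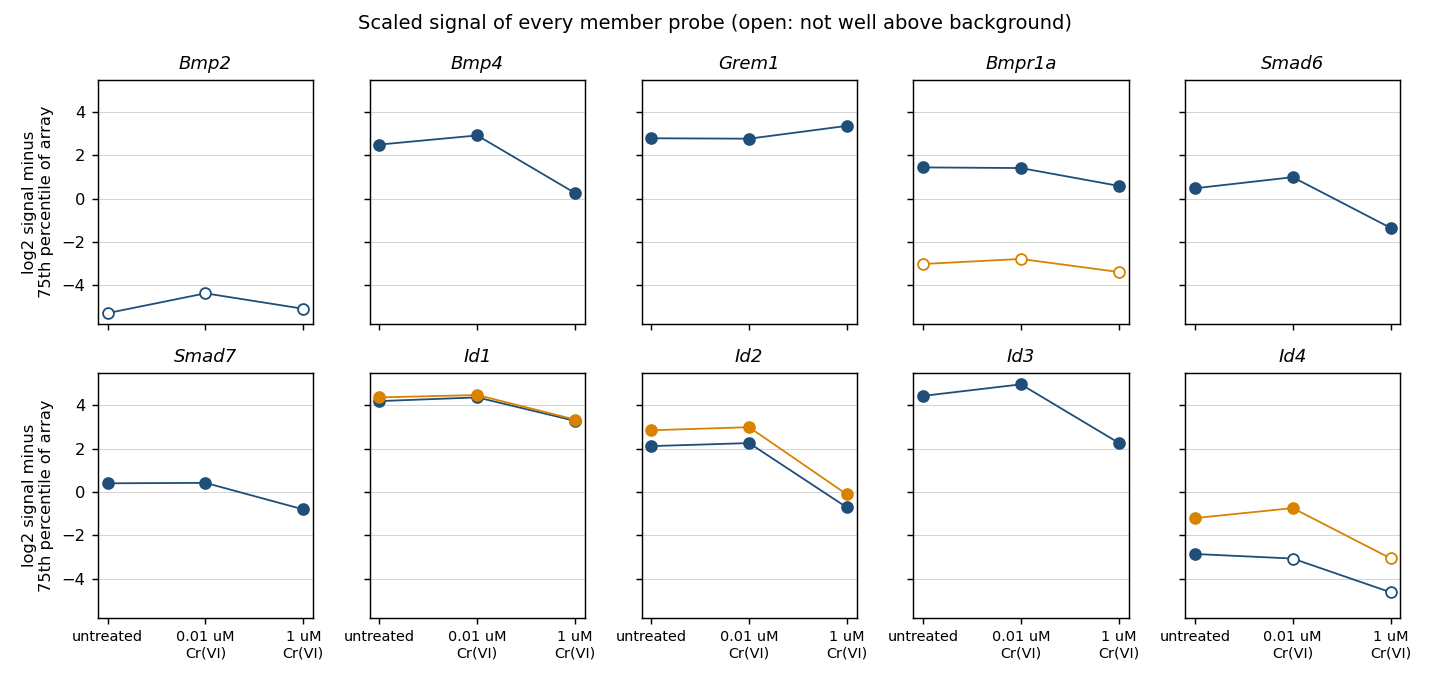
Each panel gives 1 gene, with the 3 arrays on the horizontal axis in order of dose and log2 signal minus the array's 75th percentile on the vertical axis; lines join a probe, colours separate 2 probes of a gene, and open points are not well above background. Bmp4, Smad6, Smad7 and the Id genes have their lowest point at 1 uM, Grem1 has its highest there, and Bmp2 is open on all 3 arrays.

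The Id genes held both the largest and the smallest of the 7 differences past 2-fold. Id2 was read by 2 probes that share no bases, and the brighter had levels of 2.84 in untreated cells, 2.98 at 0.01 uM and -0.11 at 1 uM. The Id2 probe printed above read 2.11 in untreated cells, 2.25 at 0.01 uM and -0.71 at 1 uM. The differences at 1 uM against untreated were -2.95 (7.73-fold lower, SE 0.21) and -2.83 (7.09-fold lower, SE 0.22), so the 2 probes differed by less than their technical error. For the brighter one, 39 of 12450 genes (0.313%) had a value as low or lower.

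Id3 had levels of 4.42 in untreated cells, 4.95 at 0.01 uM and 2.26 at 1 uM, with a difference of -2.16 at 1 uM against untreated (4.47-fold lower, SE 0.20). Id1 is read by 2 probes that share 50 of their 60 bases and are not separate measurements. Their levels were 4.35 and 4.18 in untreated cells, 4.46 and 4.35 at 0.01 uM, and 3.33 and 3.27 at 1 uM, so the 1 uM array was lowest for both. The differences were -1.02 (2.03-fold lower, SE 0.20) and -0.91 (1.87-fold lower), on either side of the threshold, and the call was lost under 7 of 11 alternative settings.

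The brighter Id4 probe lay at -1.20 in untreated cells and -0.74 at 0.01 uM. At 1 uM it was not well above background (-3.05), so it was at least 3.04-fold lower there than in untreated cells. A second Id4 probe was above background in untreated cells only and gave no fold.

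In the order of the differences at 1 uM, Id2 came first and Bmp4 next, 0.72 apart, more than the 95% technical interval of that gap (plus or minus 0.58). Bmp4, Id3, Smad6, Smad7, Id1 and Bmpr1a followed, and each pair of neighbours among them lay within the interval of its own gap (0.57 to 0.65). Grem1 came last, 1.43 above Bmpr1a, with an interval of plus or minus 0.57. Id4 has only a bound and no place in this order.

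**Figure D3:**
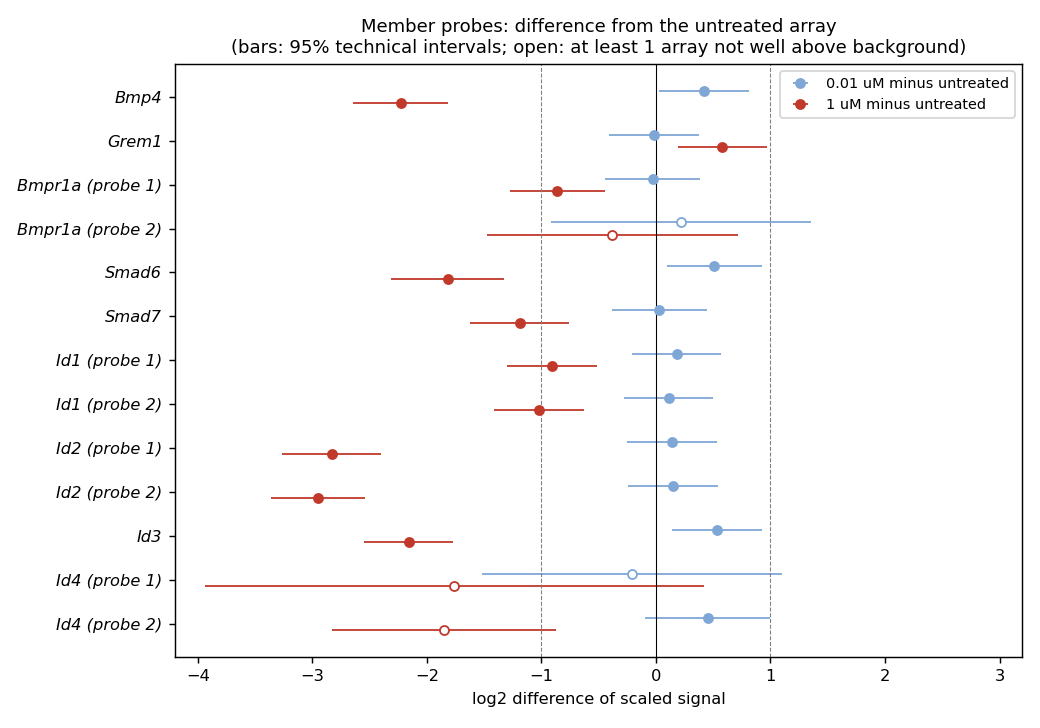
Log2 differences from the untreated array for each member probe except Bmp2 are on the horizontal axis, in red for 1 uM and in blue for 0.01 uM, with 95% technical intervals as bars and dashed lines at 2-fold; open points have at least 1 array not well above background. The red points of Id2 lie near -3 and those of Grem1 at 0.58, while all blue points with both arrays above background lie between -0.03 and 0.53.

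At 0.01 uM, 0 of the 9 measured genes differed by 2-fold from untreated cells, where 0.26% of 11915 genes were higher by this much, 0.168% lower and 0.428% one or the other. Their median was 0.15 against 0.03 over all genes. The probes whose 95% technical interval left out 0 were all higher at 0.01 uM, and they were those of Id3 (0.53, 1.44-fold), Smad6 (0.51, 1.42-fold) and Bmp4 (0.42, 1.33-fold). The share of all genes passing this rule is not given, so the number of members passing it is not a result about them. The interval holds no variation between cultures. The interval held 0 in 5 of 11 alternatives for Bmp4 and in 1 of 11 each for Id3 and Smad6. Though small, these values were as high as or above those of 97.8% to 98.9% of all genes in this comparison. For Bmp4, Id3 and Smad6 the 0.01 uM and the 1 uM values had opposite signs, and both use the same untreated array. The value of Id4 was 0.45, of Id2 0.15 (brighter probe), of Id1 0.11, of Smad7 0.03, of Grem1 -0.02 and of Bmpr1a -0.03, all with intervals that held 0. The sign of the last 3 changed with the scaling.

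Set directly against 0.01 uM, the 1 uM array was at least 2-fold lower for the same 7 genes, where 6.45% of 12059 genes were, 5.2% were higher by this much and 11.7% were one or the other. Grem1 was 0.59 higher and Bmpr1a lower, at -0.82. The values were -3.10 for Id2, -2.69 for Id3, -2.65 for Bmp4, -2.33 for Smad6, -1.22 for Smad7 and -1.13 for Id1. Id4 was at least 4.17-fold lower. The call was lost for Id1 under quantile (-0.90), loess (-0.88) and spike-in scaling (-0.76), for Smad7 under spike-in scaling (-0.85) and normexp (-0.92), and for Id4 with the mean of its probes (-0.90). This comparison shares the 1 uM array with the one against untreated cells, so they are not independent.

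**Figure D4:**
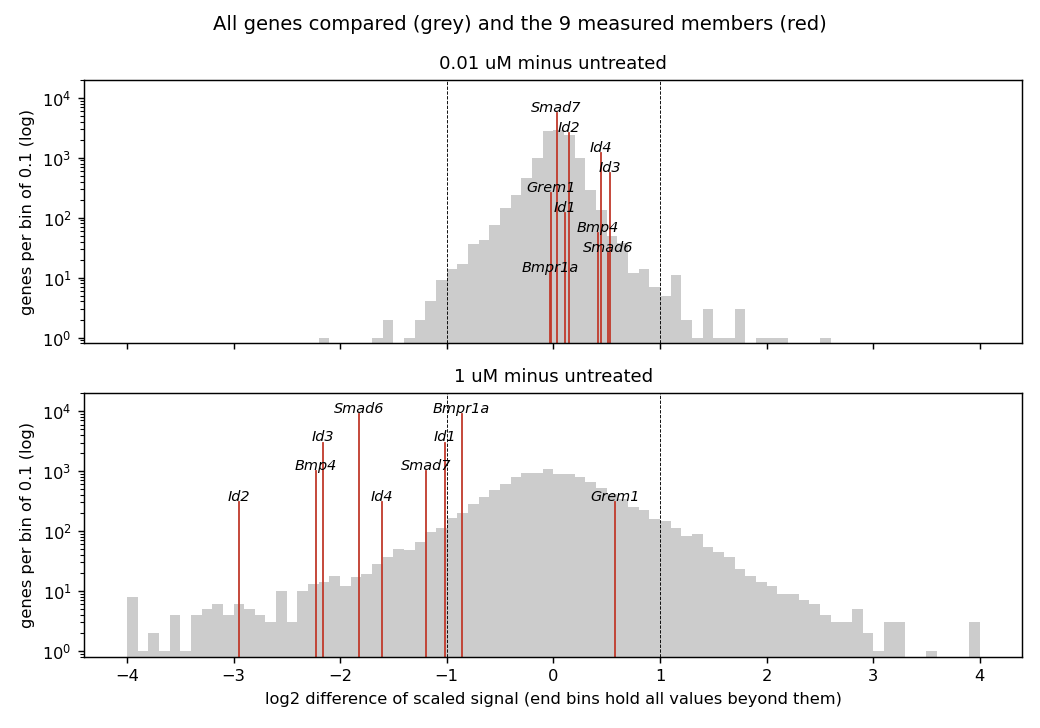
Grey bars count all compared genes per bin of 0.1 in log2 difference (horizontal axis), on a logarithmic vertical axis. The panels are 0.01 uM (upper) and 1 uM (lower) against untreated cells. Red lines mark the 9 members compared, with Id4 at its bound in the lower panel, and dashed lines mark 2-fold. The members lie within 2-fold in the upper panel, between -0.03 and 0.53, and from Id2 at -2.95 to Grem1 at 0.58 in the lower one.

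The wider pathway was described by 6 further lists with 110 genes on the array. They were drawn up from known function, but with earlier results of these data known. At 1 uM, 68 could be compared with untreated cells, of which 3 were past 2-fold upwards and 6 downwards, beside 5.57% and 4.86% of all genes. Their median was -0.11, or 0.59 under spike-in scaling. At 0.01 uM 0 of 68 passed 2-fold, where 0.428% of all genes did. The genes that passed were spread over 4 of the lists, and the receptors and Smads held none. Single genes of these lists are given in the main setting only, and spike-in scaling moved all measured differences up.

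Among the other extracellular antagonists and modulators, 13 of 22 could be compared. Their median was -0.34, which is only a bound, that of Kcp, not above background at 1 uM. The median was -0.11 with both arrays above background and -0.08 with the mean of probes. Under spike-in scaling it was 0.0, the value set for a bound that gives no fold, and not a measured difference. Nbl1, a BMP antagonist of the DAN family, had levels of 4.71 in untreated cells, 4.93 at 0.01 uM and 2.68 at 1 uM, 4.08-fold lower at 1 uM than in untreated cells. Htra1, a secreted protease, had 3.30 in untreated cells, 3.46 at 0.01 uM and 1.73 at 1 uM and was 2.98-fold lower. Bmper, a secreted modulator of BMP activity, had 1.40 in untreated cells, 1.37 at 0.01 uM and 2.79 at 1 uM and was 2.62-fold higher. Fstl1, which encodes a secreted follistatin-like protein, differed by -0.56 at 1 uM.

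Among 21 other BMP response genes, 16 could be compared, with 0 past 2-fold upwards and 3 downwards (5.57% and 4.86% of all genes). Their median was -0.35, or 0.38 under spike-in scaling. Hes1, a repressor best known as a Notch target, had levels of 2.04 in untreated cells, 2.47 at 0.01 uM and -0.65 at 1 uM, 6.44-fold lower at 1 uM. Atoh8, a helix-loop-helix factor, had 1.02 in untreated cells, 1.33 at 0.01 uM and -1.47 at 1 uM and was 5.59-fold lower. Hey1, a related repressor, had -1.31 in untreated cells, -1.41 at 0.01 uM and -2.40 at 1 uM and was 2.12-fold lower. The bright genes Junb and Cdkn1a, which encode a subunit of AP-1 and a cell cycle inhibitor, differed by -0.72 and -0.13. A second Junb probe, above background on all 3 arrays, read -1.22, so the Junb probes fell on either side of the threshold.

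Of the E proteins and partners of Id proteins, 9 of 15 could be compared, with a median of -0.10, or 0.63 under spike-in scaling. Scx, a tendon factor, had levels of -0.44 in untreated cells, -0.37 at 0.01 uM and 0.62 at 1 uM, 2.09-fold higher at 1 uM. Bhlhe41, a repressor of the clock, was not above background at 1 uM (-2.75, against -0.73 in untreated cells) and at least 4.06-fold lower. The E protein gene Tcf4 differed by -0.10, Tcf3 by 0.77, and Bhlhe40 by -0.94.

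Of 20 other BMP and GDF ligands, 3 could be compared with untreated cells at 1 uM. Gdf15, a stress-induced secreted factor, was 3.03-fold higher at 1 uM, with levels of -0.18 in untreated cells, -0.25 at 0.01 uM and 1.42 at 1 uM. Gdf1 differed by -0.83 and shares a transcript with Cers1, so its signal may be that of either. The 9 receptors and co-receptors compared had a median of 0.11 and 0 past 2-fold, with 0.19 for Rgma and 0.33 for Neo1, both BMP co-receptor genes. The 18 Smads and Smad regulators compared had a median of -0.07, or 0.66 under spike-in scaling, and likewise 0 past 2-fold, with -0.70 for Ctdsp2, a Smad phosphatase, and -0.10 for Ube2o, which regulates SMAD6.

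**Figure D5:**
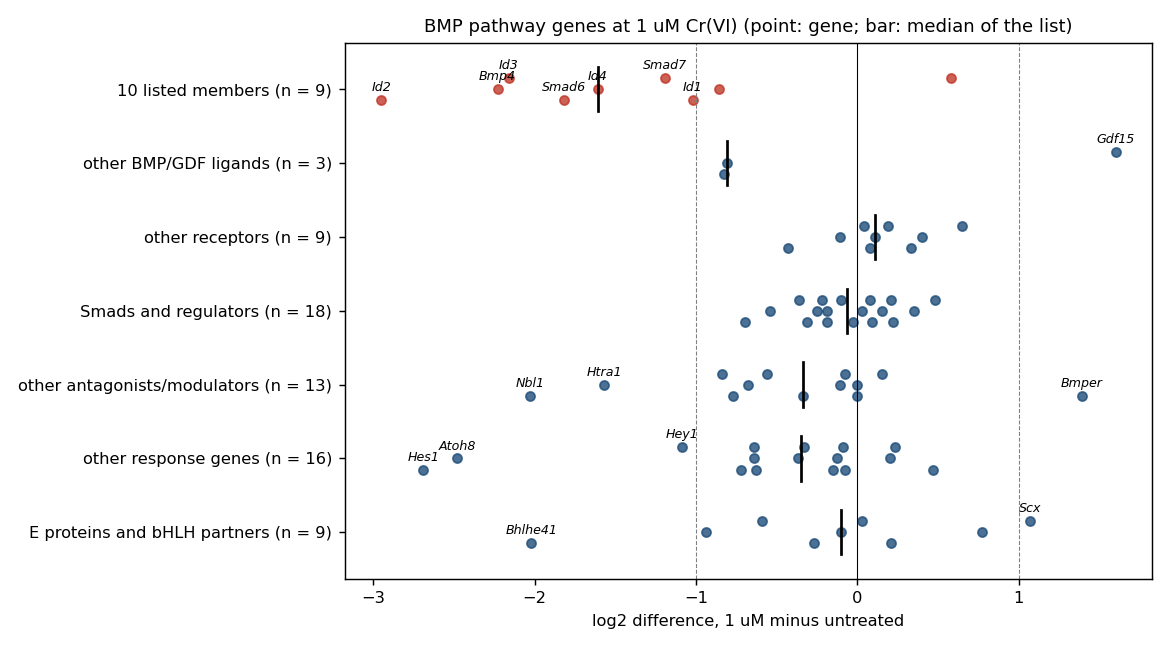
Points are genes at 1 uM minus untreated on the horizontal axis (log2), by list on the vertical axis with the number compared, bars are medians and dashed lines 2-fold. The members have the lowest median, -1.61, and the receptors and Smads have no gene beyond 2-fold.

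Id2 had the widest range over the 3 arrays, 3.10, of the 8 genes measured on all of them. The range of Id4 has only a lower bound, and Bmp2 was not measured. Of 10339 genes measured on the 3 arrays, Svep1, Tcp11l2 and Deptor had the profiles nearest to it, at Euclidean distances of 0.0427, 0.0649 and 0.09 between profiles centred on their own mean over the 3 arrays. The closest of the 10 genes to Id2 were Bmp4, Id3 and Smad6, at ranks 42, 50 and 79. Smad7 had rank 325, Id1 443, Bmpr1a 784 and Grem1 9259. The members were chosen with their signals known, and these ranks largely restate the differences at 1 uM, so they test nothing.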

How the data were processed

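One-colour Cy3 Agilent arrays, 1 per group and 3 in all, shared 1 slide and scan, which leaves no batch to test. Agilent Feature Extraction 10.5.1.1 gave the authors' deposited spot intensity, per the file headers, which record detrending and surrogate values for dim spots. The deposited value table holds log2 values that differ from log2 signal by 1 constant per array, within 0.01 for nearly all probes. Control and outlier-flagged spots were left out, spots were averaged, and each array's 75th percentile of all probes was subtracted, as that table does.

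A gene was read by its brightest probe and compared where 1 or both arrays read it well above background. A gene not above background or saturated on 1 of them has a bound. With 1 array per group no p-value is given, and the number of arrays limits the precision. Differences of at least 2-fold were counted. The members and lists were chosen with earlier results of these data known. Named genes are the 10 members, in each of the 6 other lists the genes past 2-fold (up to 4) and the 2 brightest, and the 3 profiles nearest to the member with the widest range; Tcf3 was named after its value was seen. Probes were named through RefSeq (25094 by accession, 6332 by symbol, 1640 by synonym, and 8101 kept the file's name). Tools were pandas 2.3.3, numpy 2.4.6 and statsmodels 0.14.6 in Python 3.11.15, R 4.3.3 with limma 3.58.1 (normexp) and matplotlib 3.10.9. The counting was tested on simulated data. The 13 alternatives covered scaling, background correction, filters, probe summary, outlier spots, the value table and the fold threshold.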

Additional observations from a re-analysis of the deposited data

Results flagged for a closer look

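Bmp4 had a log2 difference of -2.23 at 1 uM and 0.42 at 0.01 uM, each against the same untreated array, and neither 95% technical interval held 0. Id3 had -2.16 at 1 uM and 0.53 at 0.01 uM, and Smad6 had -1.82 and 0.51. The difference between the doses in each of these 3 genes was not tested, since each group had 1 array. Over the alternatives the values at 0.01 uM ranged from 0.29 to 0.78 for Bmp4, 0.39 to 0.89 for Id3 and 0.30 to 0.86 for Smad6. The interval at 0.01 uM then held 0 for Bmp4 in 5 of 11 alternatives (4 scalings and normexp), for Id3 with quantile normalization and for Smad6 with normexp. One spot of the Bmp2 probe on the 1 uM array was left out as an outlier by the scanner software and read -1.65, against -5.18 for the highest spot of the untreated array. The other 9 spots at 1 uM lay between -5.11 and -5.01.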

How the results depend on the processing

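No paired analysis was possible because each group had 1 array, and for the same reason no replicate could be left out. The 4 genes Bmp4, Id2, Id3 and Smad6 stayed at least 2-fold lower at 1 uM than in untreated cells under every alternative scaling, filter, summary and source of values, with ranges of -2.23 to -1.50, -2.96 to -2.22, -2.16 to -1.43 and -1.86 to -1.09. Id1 was under 2-fold in 7 of 11 alternatives (-1.02 to -0.29), Smad7 under normexp (-0.94) and spike-in scaling (-0.46), and Id4 with the mean of probes (-0.78) and spike-in scaling (-0.88). Scaling on 6 spike-in controls moved all measured differences of a comparison up by 1 amount. Bounds did not all move by this amount. At 1 uM, 3476 genes were then higher and 167 lower than in untreated cells. Of the members, 1 (Grem1, 1.31) was higher and 4 lower, and their median was -0.88. Calls then were 95.4% higher, against 53.4% in the main setting.

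At 1 uM against untreated, counts of genes higher and lower were 1758 and 1166 with no filter on dim probes, 1719 and 1670 at 1.5-fold, and 167 and 201 at 3-fold. The counts were 887 and 514 with loess (63.3% higher), 474 and 482 with both arrays above background (49.6%) and 290 and 450 with normexp (39.2%), so the last 2 had more genes lower than higher. The members' median was -1.17 with normexp and -1.19 with the mean of probes. At 0.01 uM against untreated, the counts were 79 and 5 with spike-in scaling, 10 and 6 with normexp, 8 and 8 with both arrays above background, 721 and 263 with no filter, 107 and 135 at 1.5-fold and 9 and 2 at 3-fold, and quantile normalization gave 13 lower. The share higher there was 60.8% in the main setting, 48.3% with the percentile of detected probes, 72.3% with quantile and 94.0% with spike-in scaling. At 0.01 uM the sign of Bmpr1a, Grem1 and Smad7 changed over the scalings. At 1 uM against 0.01 uM, the counts were 1349 and 370 with spike-in scaling, 1534 and 1574 with no filter, 1491 and 2088 at 1.5-fold (with 1 member, Grem1, higher) and 172 and 254 at 3-fold, and normexp gave 375 higher. The members' median there was -1.42 with normexp and -1.22 with the mean of probes. The share higher was 44.6% in the main setting, 57.6% with the percentile of detected probes, 57.7% with loess and 78.5% with spike-in scaling. At 1 uM against untreated, spike-in scaling also turned the medians of the other pathway genes to 0.59, the Smads to 0.66, the other response genes to 0.38 and the E proteins to 0.63. Dim genes such as Bmp2 and Id4 are limited by background, and the cause of the changes was not tested.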
